A study of Arabidopsis thaliana with 4 samples.

Results

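The loci described here are the protein and tRNA genes of the chloroplast genome of Arabidopsis thaliana, 125 of the 33602 loci in a table of small RNA reads. They are all loci whose identifier starts with ATCG except the 8 chloroplast rRNA loci. Small RNA below 200 nt was sequenced from aerial tissue of 18-day-old plants of 4 genotypes, grown at 22 °C with 16 h of light and 8 h of dark. The wild type was Col-0. Plants of the genotype ein5-1 ski2-3, called the double mutant below, lack normal function of 2 mRNA decay routes of the cytoplasm: EIN5 is the 5′ to 3′ exonuclease, and SKI2 is an RNA helicase that feeds the exosome. Plants of the genotype rdr6-11 have a mutant RDR6, the polymerase that copies single-stranded RNA into the double strands from which small interfering RNAs are cut. The rdr6-11 ein5-1 ski2-3 plants (the triple mutant) carry all of these alleles. Each genotype had 1 library, so no difference below has a replicate check and no p-value is given, and the labels do not say how many plants went into a library.

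The chloroplast genome is a small circular genome that descends from a cyanobacterium and lies in many copies inside each chloroplast. Its genes encode subunits of the photosynthetic complexes, a bacterial type of RNA polymerase, ribosomal proteins and the tRNAs of the organelle. Most are transcribed together in long clusters that nucleases inside the chloroplast cut and trim into the mature RNAs. EIN5, SKI2 and RDR6 act on cytoplasmic RNA. In a library of RNA of this size range, reads at these genes can come from fragments of longer RNAs as well as from whole tRNAs, and the table does not tell these apart, since it holds neither read size nor strand.

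The reference annotation does not hold the ATCG identifiers. Members were therefore named by length: the locus length recovered from the deposited values, plus 1 base, was matched to the gene lengths of the RefSeq chloroplast annotation (TAIR10.1). This offset held at 530 of 608 nuclear tRNA genes and at 3685 of 3701 pseudogenes joined by identifier, but at only 3137 of 22096 nuclear protein-coding genes. A single gene symbol fitted 86 members, several genes fitted 32, and no gene fitted 7, which keep their identifiers here. The named members with 1 copy in the genome, 70 in all, fell in chromosome order when sorted by identifier, and of 6 members described in notes of the annotation 5 carried the same gene. The remaining member, ATCG00430, is described as photosystem II reaction center protein G and is ndhK here by length. Whether these are names of the same gene was not checked. By length, 81 members were protein genes and 37 were tRNA genes.

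The sequences of 4 genes are shown because the results below turn on them. The tRNA locus ATCG00200, the member that differed most between rdr6-11 and Col-0, has a length that fits the genes trnC and trnG, tRNAs for cysteine and glycine. The gene rpl23, for a protein of the large ribosomal subunit, lies in 2 copies, and its share of the members' reads was lowest in the triple mutant, where that of the other protein genes was highest. The gene psbN, which encodes a small protein needed to assemble photosystem II, lies on the strand opposite to psbB, psbT and psbH around it. All are given 5′ to 3′ on the gene's own strand from the RefSeq chloroplast sequence (Pltd, TAIR10.1). Capitals mark the anticodon in the tRNA genes and the start and stop codons in the protein genes.
trnC, Pltd:27373-27443, plus strand: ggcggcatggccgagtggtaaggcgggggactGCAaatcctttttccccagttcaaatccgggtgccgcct
trnG, Pltd:36490-36560, plus strand: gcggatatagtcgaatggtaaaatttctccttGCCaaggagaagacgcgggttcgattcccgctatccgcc
rpl23, first copy, Pltd:85862-86143, minus strand: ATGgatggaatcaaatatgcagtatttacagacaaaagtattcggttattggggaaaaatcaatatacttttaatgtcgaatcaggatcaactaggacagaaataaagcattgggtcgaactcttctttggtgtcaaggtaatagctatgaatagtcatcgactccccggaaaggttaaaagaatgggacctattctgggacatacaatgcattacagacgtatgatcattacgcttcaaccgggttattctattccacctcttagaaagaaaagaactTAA
psbN, Pltd:74249-74380, minus strand: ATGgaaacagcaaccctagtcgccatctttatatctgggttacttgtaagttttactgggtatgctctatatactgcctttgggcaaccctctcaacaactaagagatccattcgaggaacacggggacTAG
The tRNA genes trnC and trnG are both 71 bases long and carry the same base at 33 of 71 positions when laid side by side without gaps. Which of them ATCG00200 is cannot be read from its length.

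The table held 808276 reads for Col-0, with 621515 for the double mutant, 878632 for single rdr6-11 and 877589 for triple mutant plants. Reads at the mutated genes were too sparse to check the genotypes: EIN5 had 2, 2, 0 and 4 reads in that order, SKI2 had 4, 2, 3 and 3, and RDR6 had 1, 3, 0 and 2. All 12 nuclear photosynthesis markers of green tissue were detected, with summed reads of 2080, 1481, 6384 and 15757, of which LHCA4, a light-harvesting protein of photosystem I, gave 1550, 843, 5519 and 13854. The 7 root markers summed to 14, 5, 17 and 20 reads, nearly all at PYK10, with WER, EXPA7 and COBL9 at 0 in every library. The locus lengths used by the submitters were identical in Col-0 and the double mutant and identical in rdr6-11 and the triple mutant. Between these pairs they differed at 445 of 12348 loci (Col-0 and rdr6-11) and at 965 of 15610 loci (double and triple mutant), though at 0 of the chloroplast members. Any difference in handling between the 2 pairs of libraries therefore cannot be told apart from the RDR6 genotype in the comparisons of rdr6-11 with Col-0 and of the triple with the double mutant.

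The members held 19672 reads in Col-0, with 7611 in the double mutant, 27641 in single rdr6-11 and 28547 in triple mutant plants. Those reads made up 2.43% (95% exact interval 2.40% to 2.47%), 1.22% (1.197% to 1.252%), 3.15% (3.11% to 3.18%) and 3.25% (3.22% to 3.29%) of the table. The double mutant library was thus the low one, and the libraries with rdr6-11 were the high ones. On the RPM scale, which divides reads by the table total, the double mutant lay 1.99-fold below Col-0 (95% counting interval 1.94 to 2.04), whereas the triple mutant lay 1.03-fold above rdr6-11 (1.02 to 1.05). The library of rdr6-11 lay 1.29-fold above Col-0 (1.27 to 1.32), and the triple mutant lay 2.66-fold above the double mutant (2.59 to 2.72). The small difference between the triple mutant and rdr6-11 changed direction with the scaling, to 0.903-fold by median of ratios and 0.862-fold by TMM. In bulk tissue, fewer cells of a type and less RNA per cell cannot be told apart, and counting intervals cover counting error only.

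The summed chloroplast rRNA did not follow the members in the double mutant, though most single rRNA loci did. The 8 rRNA loci held 57679, 53338, 159021 and 209372 reads in the order Col-0, double mutant, rdr6-11 and triple mutant, so that they were 1.203-fold higher than Col-0 in the double mutant (1.19 to 1.22) where the protein and tRNA genes were lower. The rRNA loci of the small subunit (16S) held 14696, 28440, 73144 and 106641 reads, those of the large subunit (23S) held 30555, 18576, 70106 and 88795, and the 4.5S and 5S loci held 12428, 6322, 15771 and 13936. In the double mutant over Col-0 the 16S loci were 2.52-fold higher (2.47 to 2.57), whereas 23S was 1.26-fold lower (1.24 to 1.29) and 4.5S and 5S were 1.51-fold lower (1.47 to 1.56), so 6 of 8 rRNA loci lay below 0 on the log2 scale. The members' share of all chloroplast reads was accordingly 25.4% in Col-0 (25.1% to 25.7%), with 12.5% in the double mutant (12.2% to 12.8%), 14.8% in single rdr6-11 (14.6% to 15.0%) and 12.0% in triple mutant plants (11.9% to 12.1%). Col-0 stood apart from the 3 mutants, which lay within a few percent of each other. Summed reads of mitochondrial loci, the other organelle genome, were 1.55-fold higher than Col-0 in the double mutant (1.48 to 1.61), but their median log2 fold was -0.10 and 26 of 42 measured loci lay below 0. Nuclear tRNA genes were 1.54-fold lower.

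**Figure D1:**
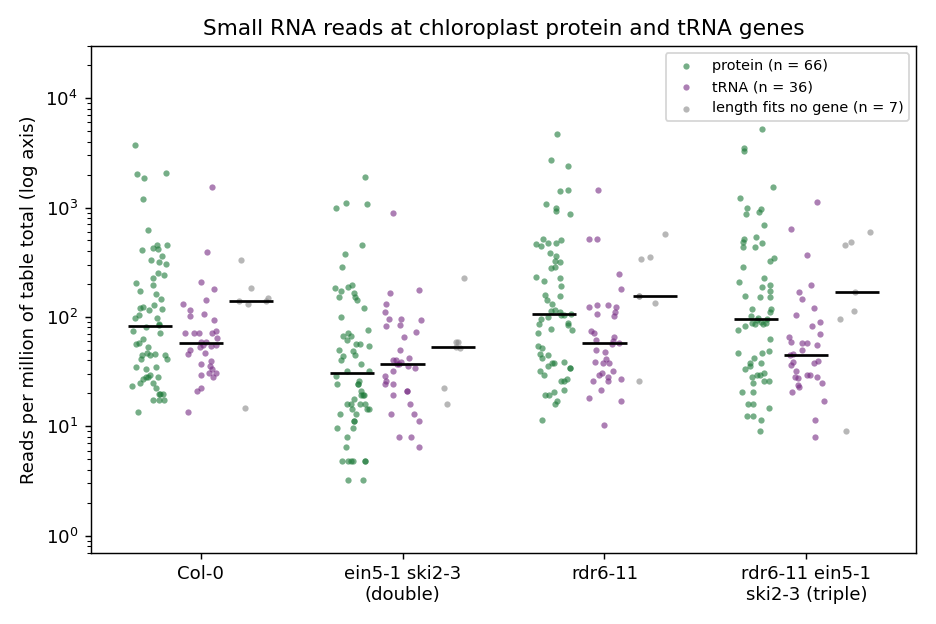
RPM, reads scaled to the table total (log axis), at the 109 chloroplast members with at least 40 reads over the 4 libraries, by library. Points are members, coloured as protein genes (66), tRNA genes (36) and loci whose length fits no gene (7), and bars are medians; the median of the protein genes is lowest in the double mutant.

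All 125 members had reads in some library, 121 had reads in every library, and 109 held at least 40 reads over the 4 libraries, the minimum for a fold to be counted here. A member was called higher or lower when its RPM, with 1 read added, differed 4-fold or more and its higher library had 50 reads or more. In the double mutant over Col-0, 5 of 59 members that reached 50 reads were called lower and 0 higher. Over all loci that reached this minimum, 9.06% were called lower and 26.9% higher, so the share of members called lower, 8.47%, was near the background at this setting. The members differed from the background in the middle of their distribution. Below 0 lay 104 of 109 members, where 1513 of 2799 measured loci did, and the median log2 fold was -1.08 against -0.14 over all loci. The value over all loci mixes classes, with medians of 1.08 at nuclear protein-coding genes, -0.62 at nuclear tRNA genes and -1.02 at nuclear miRNA genes. A median this low was therefore not particular to the members. The counting interval of the fold lay below 1 for 76 members and above 1 for 1, which was not counted over all loci.

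In the triple mutant over rdr6-11, 0 of 68 members were called in either direction, where 16.4% of all loci were called higher and 0.418% lower. The median log2 fold was -0.07, against 0.07 over all loci. Of the members, 48 lay above 0 and 61 below, where 1507 and 1292 of 2799 measured loci did. Both comparisons set the same 2 mutations against their absence, first with and then without functional RDR6, and share no library. Across the 109 members, their log2 folds had a Spearman correlation of 0.13 and a Pearson correlation of 0.14. Within the 66 protein members Spearman's value was 0.26, and within the 36 tRNA members it was 0.33. The counting interval lay above 1 for 13 members and below 1 for 26, again not counted over all loci.

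**Figure D2:**
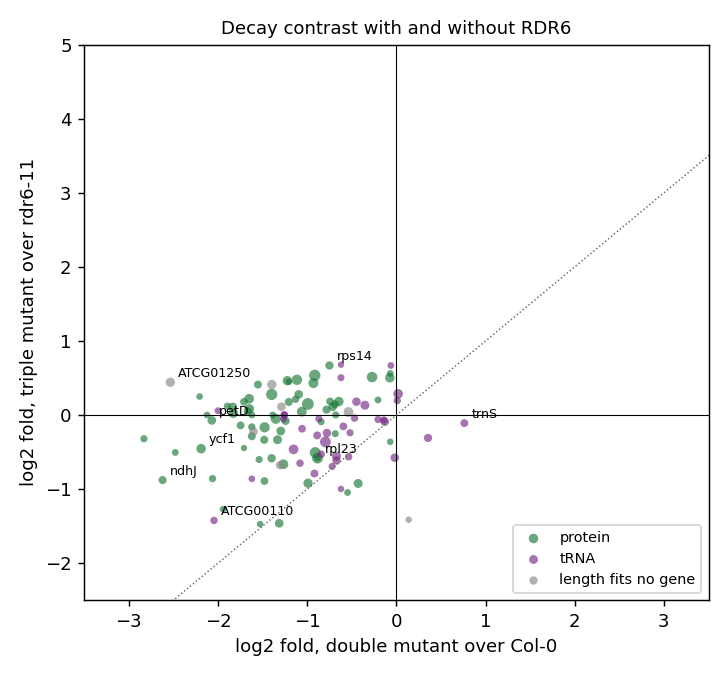
Log2 fold of the double mutant over Col-0 (x axis) against log2 fold of the triple mutant over rdr6-11 (y axis), both with 1 read added, for the 109 members. Point size grows with total reads and the dotted line marks equal folds; 104 members lie left of 0 on the x axis while the y values lie on both sides of 0.

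In rdr6-11 over Col-0, 1 of 68 members was called higher and 0 lower, where 1.96% of all loci were called higher and 3.92% lower. The called member was ATCG00200. The median log2 fold was 0.22, against 0.01 over all loci. In the triple over the double mutant, 19 of 64 members (29.7%) were called higher and 0 lower, where 13.5% of all loci were called higher and 14.5% lower. Here the median log2 fold was 1.098, against 0.24 over all loci. Above 0 lay 95 of 109 members, where 1621 of 2799 measured loci did. By class, the medians were 1.17 at chloroplast rRNA loci, 1.35 at mitochondrial loci, 0.18 at nuclear protein-coding genes and 0.10 at nuclear tRNA genes. In rdr6-11 over Col-0 the chloroplast rRNA and mitochondrial loci had medians of 0.75 and 0.54. Higher medians in the contrasts of RDR6 were therefore not particular to the members. These comparisons share no library either, and their log2 folds had a Spearman correlation of 0.64 and a Pearson correlation of 0.68 across the 109 members. The points share their genes' lengths and the pairs of libraries with different locus lengths, so the correlation is a description only.

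**Figure D3:**
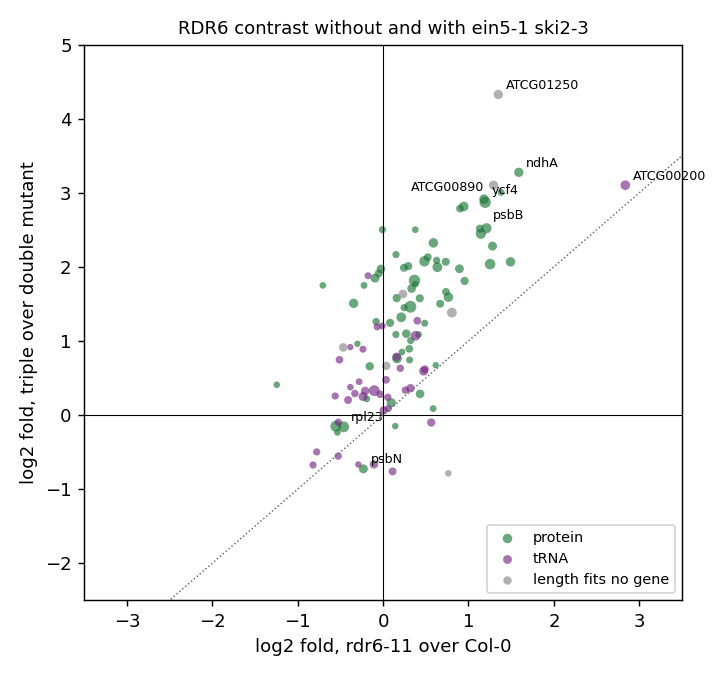
Log2 fold of rdr6-11 over Col-0 (x axis) against log2 fold of the triple over the double mutant (y axis), both with 1 read added, for the 109 members. Most protein genes lie above the dotted line of equal folds, rpl23 and psbN lie below 0 on both axes, and ATCG00200 is the tRNA locus far to the right.

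Photosystem I, which passes electrons from plastocyanin to ferredoxin, had 3 members. Its core subunit gene psaB held 365 reads in Col-0, with 232 in the double mutant, 947 in single rdr6-11 and 1350 in triple mutant plants. Both rdr6-11 libraries were high, and psaB was called higher in the triple over the double mutant at 4.12-fold (3.58 to 4.76). The partner subunit gene psaA, its neighbour in the genome, held 330, 121, 416 and 429 reads and was 2.51-fold higher in that comparison (2.05 to 3.10). In the double mutant over Col-0 psaB was 1.21-fold lower (1.02 to 1.43) and psaA 2.097-fold lower (1.70 to 2.60), with intervals that did not overlap. The small subunit gene psaJ held 18, 9, 30 and 14 reads.

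Photosystem II, which splits water, had 15 members and the largest share of the reads. ATCG00020, whose length fits psbA and psbD, the genes of the reaction centre proteins D1 and D2, was the member with the most reads, at 3034 in Col-0, with 1172 in the double mutant, 4117 in single rdr6-11 and 4562 in triple mutant plants. ATCG00270, which fits the same genes, held 269, 108, 455 and 613. Both were lowest in the double mutant and highest in the triple mutant. The double mutant lay 1.99-fold below Col-0 at ATCG00020 (1.86 to 2.13) and 1.92-fold below at ATCG00270 (1.53 to 2.42). The triple mutant lay above the double mutant 2.76-fold (2.58 to 2.94) and 4.02-fold (3.27 to 4.98), and at ATCG00270 the fold with 1 read added stayed under the call.

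The antenna protein genes psbB (CP47) and psbC (CP43) were both called higher in the triple over the double mutant. At psbB the libraries held 962, 280, 2396 and 2903 reads in the same order, and the fold was 7.34 (6.49 to 8.33). At psbC they held 506, 179, 770 and 1070 reads, and the fold was 4.23 (3.61 to 4.99). Without the decay mutations the order was the same but smaller, with rdr6-11 over Col-0 at 2.29-fold for psbB (2.13 to 2.47) and 1.40-fold for psbC (1.25 to 1.57). RefSeq places psbC partly inside psbD, with 53 shared bases.

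Downstream of psbB, genes on its strand lay higher in the triple over the double mutant, while psbN on the opposite strand lay lower. The downstream gene psbH, for a small photosystem II subunit, held 98, 30, 199 and 171 reads and was 4.04-fold higher (2.73 to 6.17). Further downstream on the same strand, petB was 2.88-fold higher (2.17 to 3.86) and petD 4.06-fold higher (2.60 to 6.63). Between psbB and psbH on the opposite strand lies psbN, which held 202 reads in Col-0, with 115 in the double mutant, 187 in single rdr6-11 and 98 in triple mutant plants. The short gene psbT, for another small photosystem II subunit, lies between psbB and psbN and held 14, 3, 24 and 8 reads. Its fold in the triple over the double mutant was 1.89, with an interval that spans 1 (0.453 to 11.1). The triple mutant was the lowest library at psbN, the highest at psbB and the second highest at psbH, while at psbT it was below rdr6-11 and Col-0. The psbN gene was 1.66-fold lower in triple mutant plants than in double mutant ones (1.25 to 2.19) and 1.91-fold lower in the triple mutant than in rdr6-11 (1.48 to 2.46). Reads on either strand of this segment may have been counted for psbN, since the use of strand is not given in the sources used here.

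Cytochrome b6f, which carries electrons between the photosystems, was the complex with the lowest summed fold in the double mutant over Col-0. The subunit IV gene petD held 130 reads in Col-0, with 23 in the double mutant, 139 in single rdr6-11 and 132 in triple mutant plants, and was called lower at 4.35-fold (2.77 to 7.10). The cytochrome b6 gene petB, which lies beside it, held 290, 62, 248 and 252 reads and was 3.60-fold lower (2.73 to 4.81). At both genes the double mutant was the only low library, and the other 3 libraries lay close together. The cytochrome f gene petA held 57, 15, 77 and 41 reads. The 5 members of the complex summed to 487, 103, 471 and 431 reads.

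The ATP synthase, which makes ATP from the proton gradient, had 5 members. All 5 lay below 0 on the log2 scale in the double mutant over Col-0 and above 0 in the triple over the double mutant. In rdr6-11 over Col-0, 3 lay above 0 and 2 below. The alpha subunit gene atpA held 182, 89, 337 and 382 reads in Col-0, double mutant, rdr6-11 and triple mutant, and the beta subunit gene atpB held 99, 35, 136 and 165. The gene atpF, for a subunit of the membrane stalk, held 166, 35, 169 and 182 reads. At atpF the double mutant stood alone, 3.65-fold below Col-0 (2.52 to 5.41), whereas at atpA it lay 1.57-fold below (1.21 to 2.05). The epsilon subunit gene atpE, with 33, 7, 68 and 77 reads, was called higher in the triple over the double mutant.

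The NDH complex, which returns electrons from ferredoxin to the electron transport chain, had the highest summed fold of the photosynthetic complexes in the triple over the double mutant. Its 8 members held 587 reads in Col-0, with 193 in the double mutant, 1329 in single rdr6-11 and 1569 in triple mutant plants, and the sum was 5.76-fold higher in the triple over the double mutant (4.95 to 6.72). All 8 lay above 0 in that comparison and in rdr6-11 over Col-0. Called higher in the triple over the double mutant, where the share over all loci was 13.5%, were 5 of 6 members that reached 50 reads, namely ndhA, ndhF, ndhG, ndhH and ndhI. At ndhA the libraries held 84, 27, 277 and 382 reads, a 10.02-fold difference between the triple and the double mutant (6.78 to 15.4). At ndhF they held 195, 47, 409 and 476 reads, and the fold was 7.17 (5.31 to 9.90). RefSeq lets ndhF overlap ycf1 by 39 bases on the other strand.

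Within this complex ndhI and ndhJ stood at opposite ends in the double mutant over Col-0. The ndhI gene held 103 reads in Col-0, with 75 in the double mutant, 317 in single rdr6-11 and 449 in triple mutant plants, so the double mutant lay 1.06-fold below Col-0 with an interval that spans 1 (0.777 to 1.44). At ndhJ the libraries held 79, 9, 102 and 55 reads. That gene was called lower, at 6.75-fold (3.38 to 15.3), and the triple mutant was also below rdr6-11, by 1.85-fold (1.32 to 2.62). The double mutant's 9 reads set the width of the first interval. A nuclear pseudogene related to ATCG00420, AT4G13285, held 0, 0, 1 and 1 reads.

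The large subunit of Rubisco, the enzyme that fixes carbon dioxide, is encoded by rbcL. It held 1502 reads in Col-0, with 612 in the double mutant, 2107 in single rdr6-11 and 3050 in triple mutant plants. The double mutant was low and the triple mutant high, and at 1.45-fold (1.37 to 1.53) the triple mutant exceeded rdr6-11 by more than the summed members did. The share of the members' reads at rbcL was 7.64%, 8.04%, 7.62% and 10.7%.

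The plastid-encoded RNA polymerase had 4 members. The alpha subunit gene rpoA held 368, 117, 448 and 282 reads in Col-0, double mutant, rdr6-11 and triple mutant, and it was 1.59-fold lower in the triple mutant than in rdr6-11 (1.36 to 1.85). The genes of the beta′ and beta′′ subunits, rpoC1 and rpoC2, held 46, 20, 98 and 103 reads and 68, 18, 100 and 79 reads. The beta subunit gene rpoB, with 65, 15, 87 and 90 reads, was called higher in the triple over the double mutant at 4.25-fold (2.44 to 7.91). Its log2 fold, 2.01 on the scale of the call, passed under 2 by median of ratios, as did that of psaB. All 4 were lowest in the double mutant.

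The sum over the 23 ribosomal protein members differed from the photosynthetic complexes, and most of its reads lay at 1 gene. The first copy of rpl23 held 1624 reads in Col-0, with 676 in the double mutant, 1281 in single rdr6-11 and 855 in triple mutant plants, and the second held 1672, 684, 1238 and 870. Col-0 was the highest library and both triple and double mutant were low. Summed, the copies were 1.42-fold lower in rdr6-11 than in Col-0 (1.350 to 1.499) and 1.46-fold lower in the triple mutant than in rdr6-11 (1.37 to 1.55). They held 16.8% of the members' reads in Col-0, with 17.9% in the double mutant, 9.11% in single rdr6-11 and 6.04% in triple mutant plants.

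Without rpl23 the ribosomal protein genes held 683, 241, 839 and 744 reads, and their sum was 2.19-fold higher in the triple over the double mutant (1.89 to 2.54), where all 23 gave 1.09-fold (1.03 to 1.16). A further large subunit gene, rpl33, held 247 reads in Col-0, with 95 in the double mutant, 287 in single rdr6-11 and 151 in triple mutant plants. It was 1.90-fold lower in the triple mutant than in rdr6-11 (1.55 to 2.33), close to the value of psbN. The small subunit gene rps14 held 69, 31, 84 and 134 reads and went the other way, 1.60-fold higher in the triple mutant than in rdr6-11 (1.21 to 2.12).

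**Figure D4:**
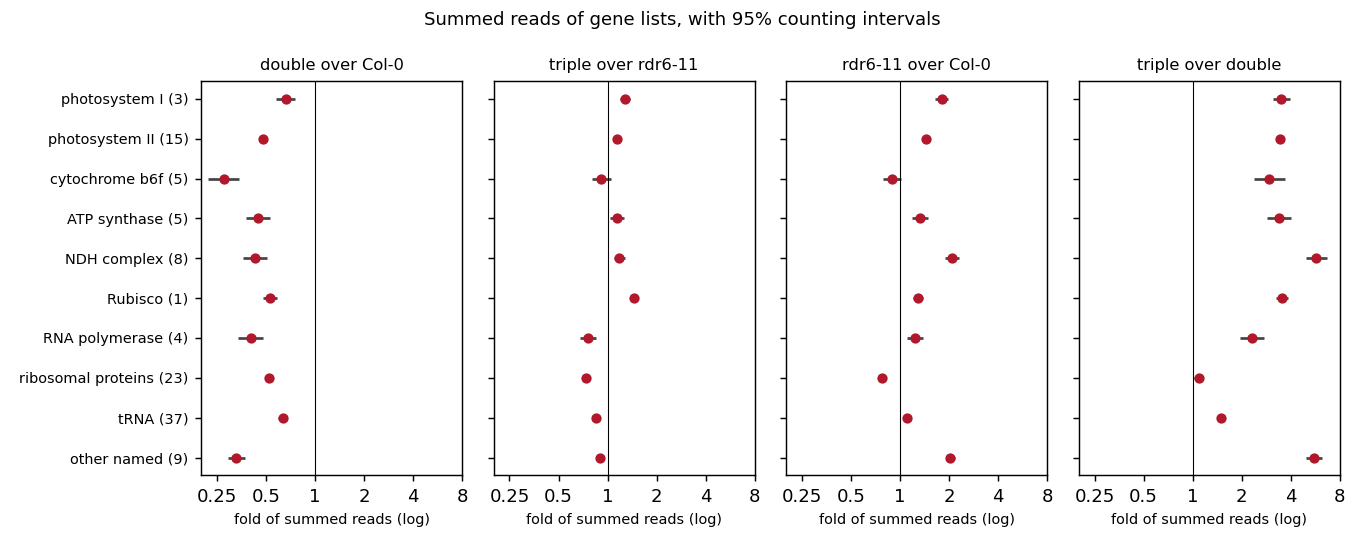
Fold of summed RPM (log axis) for 10 gene lists in the 4 comparisons, with 95% counting intervals; the number of members stands beside each list. Every list lies below 1 in the double mutant over Col-0 and above 1 in the triple over the double mutant, where ribosomal proteins at 1.09 and tRNAs at 1.49 are lowest.

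The tRNA members, 37 in all, lay closer to 0 by their median than the protein members in 3 comparisons, but not in the triple mutant over rdr6-11. They summed to 3437 reads in Col-0, with 1670 in the double mutant, 4124 in single rdr6-11 and 3508 in triple mutant plants. In the double mutant over Col-0, 32 of 36 measured tRNA members lay below 0 on the log2 scale, with a median of -0.65, where all 66 measured protein members lay below 0, with a median of -1.30. Nuclear tRNA genes were close to the tRNA members there, with a median of -0.62 and 196 of 260 measured genes below 0. In the triple over the double mutant the medians were 0.33 and 1.69, in rdr6-11 over Col-0 -0.09 and 0.33, and in the triple mutant over rdr6-11 -0.17 and 0.00. The locus ATCG00230, whose 74-base length fits 8 tRNA genes, had the most reads among them, with 1247, 552, 1262 and 980. Per length it was far above the protein genes, at 20630, 11873, 19479 and 14966 on the authors' RPKM scale, against 3453, 1734, 4372 and 4794 for ATCG00020.

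ATCG00200 was the exception among the tRNA loci. It held 58 reads in Col-0, with 45 in the double mutant, 457 in single rdr6-11 and 557 in triple mutant plants. Both rdr6-11 libraries were high and both others low. The folds were 7.25 in rdr6-11 over Col-0 (5.51 to 9.70) and 8.77 in the triple over the double mutant (6.46 to 12.2), while the decay mutations gave 1.009 (0.668 to 1.52) and 1.22 (1.08 to 1.38). ATCG00310, the other locus of the same 71-base length, held 93, 52, 113 and 128 reads, so only 1 of the 2 loci that fit trnC and trnG, shown above, carried the difference. Without ATCG00200 the tRNA sum gave 0.998-fold in rdr6-11 over Col-0 (0.952 to 1.05). This contrast coincides with the pairs of libraries that had different locus lengths.

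A few tRNA loci departed from the lower level of the double mutant or exceeded it. The serine tRNA gene trnS at ATCG00290 held 45, 59, 53 and 49 reads and was the 1 member whose interval lay above 1 in the double mutant over Col-0, at 1.71-fold (1.14 to 2.57). At the other end ATCG00110, which fits several tRNA genes of 72 bases, held 58, 10, 50 and 18 reads and was called lower, at 4.46-fold (2.26 to 9.79). It was also 2.77-fold lower in the triple mutant than in rdr6-11 (1.59 to 5.05). ATCG00410, a 73-base tRNA locus, held 317, 109, 449 and 325 reads and lay nearer to the protein genes, 2.24-fold below Col-0 in the double mutant (1.79 to 2.81).

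Among the remaining named genes the largest were ycf2 and ycf1, long essential genes linked to protein import into the chloroplast. The copies of ycf2 held 341 and 343 reads in Col-0, with 102 and 94 in the double mutant, 821 and 864 in single rdr6-11 and 792 and 769 in triple mutant plants. Both were called higher in the triple over the double mutant, at 5.50-fold (4.47 to 6.83) and 5.79-fold (4.67 to 7.26). The full ycf1 at ATCG01130 held 254, 42, 416 and 303 reads and was called lower than Col-0 in the double mutant, at 4.65-fold (3.34 to 6.61). The photosystem I assembly gene ycf4 held 158, 38, 391 and 414 reads and its neighbour cemA, an envelope membrane protein gene, held 94, 28, 250 and 198. These 2 were called higher in the triple over the double mutant, at 7.72-fold (5.53 to 11.1) and 5.01-fold (3.36 to 7.73).

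Of the 7 loci without a fitting gene, ATCG01250 had the largest fold of any member. It held 112 reads in Col-0, with 14 in the double mutant, 312 in single rdr6-11 and 424 in triple mutant plants, and its fold in the triple over the double mutant was 21.4 (12.6 to 39.6), or 12.7 (9.41 to 17.4) when summed with ATCG00890, a locus of the same length. ATCG00890 held 112, 32, 300 and 399 reads, so the loci agreed in 3 libraries and differed in the double mutant. ATCG01250 was called lower there, at 6.15-fold (3.52 to 11.6). Summed, the pair held 224, 46, 612 and 823 reads and was 3.74-fold lower (2.72 to 5.26), which is under the call. ATCG01050 held 267, 141, 508 and 522 reads.

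The loci in the repeated region of the chloroplast genome allow a check of how reads were divided between copies. The first copy took 49.8% of the reads at rpl23 (48.8% to 50.9%), 49.8% at ycf2 (48.3% to 51.4%) and 53.4% at rpl2 (46.1% to 60.7%). The protein gene copies thus shared their reads evenly. The tRNA copies did not. The first trnA copy took 81.9% (78.9% to 84.6%) and the first trnI copy 23.4% (17.7% to 29.9%), and of the trnL copies of 81 bases the first took 34.0% (30.1% to 38.1%). Values of single copies are uncertain for this reason, and counts of called members include both copies of ycf2. The count for the triple over the double mutant also includes ATCG00890 and ATCG01250, the loci of the same length without a fitting gene. Counting repeat copies once did not merge that pair.

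Longer protein members had higher folds in the contrasts of RDR6. Across the 109 members the log2 length had a Spearman correlation of 0.50 with the log2 fold in rdr6-11 over Col-0 and of 0.50 in the triple over the double mutant, and of -0.29 and 0.15 in the other comparisons. Within the 66 protein members the values for the RDR6 contrasts were 0.42 and 0.46, and within the 36 tRNA members they were 0.10 and -0.23. Protein genes of 101 to 500 bases summed to 4889 reads in Col-0, with 1923 in the double mutant, 4518 in single rdr6-11 and 3244 in triple mutant plants. Those above 1500 bases summed to 3316, 1112, 7280 and 8146. The triple over the double mutant was 1.19-fold for the short genes (1.13 to 1.26), 3.26-fold for those of 501 to 1500 bases (3.12 to 3.40) and 5.19-fold for the long ones (4.87 to 5.53). Both copies of rpl23 are in the short class, and without them, a choice made after seeing the data, that class gave 1.91-fold (1.73 to 2.11) from 563 and 1519 reads. The points share libraries and length classes overlap with function, since tRNA and ribosomal protein genes are short, and the part of the size range kept in each library was not tested.

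**Figure D5:**
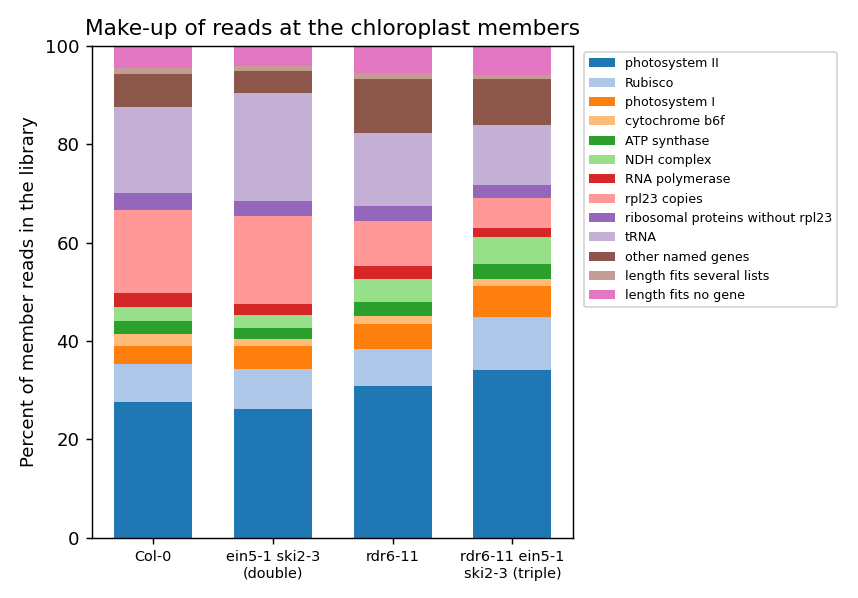
Percent of each library's member reads by gene list, stacked to 100%. The rpl23 copies shrink from 16.8% in Col-0 to 6.04% in the triple mutant and photosystem II grows from 27.7% to 34.1%.

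Nuclear genes for transcription and RNA processing in the chloroplast were read from a list of 19. They summed to 58, 44, 67 and 149 reads. The sum was 2.40-fold higher in the triple over the double mutant (1.70 to 3.44). It was 2.23-fold higher in the triple mutant over rdr6-11 (1.66 to 3.02). In the double mutant over Col-0 (0.651 to 1.49) and in rdr6-11 over Col-0 (0.737 to 1.54) the interval of the sum spanned 1. All nuclear protein-coding genes together were also higher in the triple mutant over rdr6-11, at 1.65-fold (1.63 to 1.66). In the triple over the double mutant they were at 0.883-fold (0.876 to 0.890). Of the 19 listed genes, 3 reached 40 reads over the 4 libraries. None had the 50 reads in the higher library that a call needs, so no call was possible in any comparison. At these counts small RNA from those genes could not be compared one by one.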

How the data were processed

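The deposited table holds the authors' read counts per locus and the authors' RPKM for 4 libraries, per the file headers. Per the submitters' processing notes, the tools were CASAVA 1.8.2 and BWA and the genome build was TAIR9, with no step assigned to any of them. RNA was purified with a microRNA kit and libraries were made with a TruSeq RNA kit, per the labels' protocols. Not given in the sources used here are trimming, read sizes kept, strand use and the handling of reads with several matches. Reads that match both repeat copies or a nuclear copy could therefore be split, doubled or dropped.

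Dividing counts by RPKM gave each locus length and the authors' library totals (828039, 636873, 887508 and 896983). Counts were scaled to the table totals, at which 1 read is worth 1.24, 1.61, 1.14 and 1.14 RPM (reads scaled to the table total). A count of 0 allows up to 3 reads, or 3.71, 4.83, 3.41 and 3.42 RPM. Printed folds carry no pseudocount; log2 folds and calls carry 1 read. Calls need a 4-fold difference and 50 reads in the higher library. Exact 95% intervals were computed by the Clopper-Pearson method, for folds on the binomial split of reads between the libraries compared. Both cover counting error only, since PCR copies are not independent molecules. With 1 library per genotype no test was made. The calculations were checked on simulated counts.

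The members, lists and rules were chosen with earlier results of these data known. Named genes are the 12 members with most reads, up to 6 called members of largest fold per comparison and direction, and the 3 members with most reads per list; others, such as psbN, rps14, psbH, atpE, ndhG, ndhH, cemA, ATCG00310 and trnS, were chosen after their values were seen. Alternatives changed the scaling (median of ratios, edgeR 4.0.16 TMM, reads at miRNA genes, totals without organelle loci), the minimum, the fold, the pseudocount and the counting of repeat copies. Python 3.11.15, pandas 2.3.3, scipy 1.17.1 and R 4.3.3 were used. Gene lengths and sequences came from RefSeq TAIR10.1.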

Additional observations from a re-analysis of the deposited data

Results flagged for a closer look

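The small ribosomal subunit gene rps14 stood out because its folds in the 2 contrasts of the decay mutations pointed in opposite directions, with counting intervals on either side of 1. It was at 0.584-fold in the double mutant over Col-0 (0.370 to 0.905) and at 1.60-fold in the triple mutant over rdr6-11 (1.21 to 2.12). With 1 library per genotype the difference between the contrasts was not tested.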

How the results depend on the processing

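Against table totals, the scalings shifted all log2 folds by up to -0.30 in the double mutant over Col-0 (TMM), 0.55 in the triple mutant over rdr6-11, 0.21 in rdr6-11 over Col-0 (totals without organelle loci) and 0.78 in the triple over the double mutant (the second and last by reads at miRNA genes). The summed members then gave 0.441 (median of ratios) and 0.408 (TMM) in the double mutant over Col-0, where the value by table totals was 0.503. In the triple mutant over rdr6-11 the sum reversed to 0.903 (median of ratios) and 0.862 (TMM), and moved to 1.51 (miRNA reads), 1.12 (without organelle loci) and 1.06 (repeat copies counted once). In rdr6-11 over Col-0 these settings gave 1.25, 1.26, 1.48, 1.49 and 1.34, in the same order. In the triple over the double mutant they gave 2.57 (median of ratios), 4.57 (miRNA reads), 3.31 (without organelle loci) and 2.81 (copies once). The shifts follow from the scaling factors themselves. In the double mutant over Col-0, the main setting called 5 of 59 members lower and 9.06% of all loci. At 2-fold 33 of 59 members were called lower, where 33.0% of all loci were. Without a minimum 13 of 125 were, where 1.13% of all loci were. At 2-fold the share of members was above that of all loci. Without a minimum the shares cannot be compared. The 33602 loci then counted include some without any reads, which cannot be called, whereas each of the 125 members had reads. The same limit holds for the shares without a minimum in the triple mutant over rdr6-11. A minimum of 20 reads called 9 members and 5.77% of all loci, and a pseudocount of 5 called 3 members and 6.61%. How many members were open to a call at these settings was not counted, so no share of members is given. In the triple mutant over rdr6-11, 1 of 125 members was called lower without a minimum and 2 of 68 at 2-fold, where 1.48% and 9.61% of all loci were. At 2-fold, 12 of 68 members were called higher in rdr6-11 over Col-0, where 11.6% of all loci were. In the triple over the double mutant, 42 of 64 members were called higher at 2-fold, where 36.5% of all loci were. Scaling by miRNA reads, at which the members open to a call were not counted, called 40 members higher there, and 30.5% of all loci. By the main setting these shares of all loci were 1.96% and 13.5%, so calls also rose over the whole table. The other 71 recomputed sums and counts moved by less than their counting interval or under 1.5 times. Without rpl23, an alternative chosen after seeing the data, the sum of protein genes of 101 to 500 bases reversed from 0.850 to 1.15 in rdr6-11 over Col-0. No paired analysis was possible because each genotype had 1 library. Leaving out a library was not possible for the same reason.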
